A study of Rattus norvegicus with 16 samples.

Results

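Gene expression in the rat mammary gland at postnatal day 50 was compared with that at postnatal day 35, in female offspring of Wistar Han rats, over all 16 Affymetrix arrays of the series: the 8 pools titled J50 against the 8 titled J35, with the 4 treatments as a block. Dams on a phytoestrogen-free purified diet had been gavaged once a day from gestational day 1 until their litters were weaned on postnatal day 21. They received vinclozolin (Vinclozoline in the titles), genistein (Génistéine), or both (Génistéine + Vinclozoline, here the mixture), at a daily dose of 1 mg/kg. Control dams are labelled untreated, and the labels do not say whether they were gavaged with a vehicle. The daughters, 1 per litter from groups of 15 dams, were fed that diet after weaning, so the labelled exposure ended at day 21. Each age and treatment was measured in 2 arrays, with RNA from 5 glands pooled on an array. The animals were pubertal or cycling, and no cycle stage was given for any pool.

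Between these ages the rat gland passes through puberty. The terminal end buds, the dividing tips of the growing ducts, are replaced by ductal branches and small alveolar buds, under estrogen, progesterone, prolactin and growth hormone. The epithelium lies in a fat pad with fibroblasts, vessels and immune cells, and a dissected gland can also hold skin, muscle and blood. Genistein, from soy, acts on estrogen receptors, and the fungicide vinclozolin is known as an antiandrogen.

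Values are on a log2 scale, 1 per gene and pool, for 11796 genes above a floor of 5.661. The pools of a group correlated between 0.9893 (J35 vinclozolin) and 0.9966 over all probe sets. The floor was low: 11796 of the 14324 genes named on the array lay above it, so passing it does not show that a tissue was present. Markers of the labelled tissue passed it, with all 33 luminal, 24 basal and myoepithelial and 20 white adipocyte genes named on the array. Markers of other tissues did as well, among them all 17 fast skeletal muscle genes and 19 of 20 red cell precursor genes. All 8 genes of the inner root sheath list of the hair follicle named on the array also passed the floor. The floor applies to the mean over all 16 pools, and Krt25 of this list reached it only through the J35 vinclozolin pools. A filter at the 50th percentile left 1 gene of the list. The score of that list was 2.89 and 2.50 in the J35 vinclozolin pools, against -0.58 to -0.29 in the other 14 pools. The list includes Gata3, a transcription factor that mammary luminal cells also express, which did not follow this pattern (11.57 and 11.88 in those pools, 11.38 to 12.07 in the other J35 pools). The p-values measure the spread between pools, which may be technical in part. In the age comparison with treatment as a block, that spread also holds differences in the age change between treatments.

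In the age comparison 4848 genes (41.1% of those tested) passed an adjusted p of 0.05, 2120 of them higher at J50 (18.0%) and 2728 lower (23.1%). A gene is called shared here if it passed and both J50 pools lay on the same side of both J35 pools within each of the 4 treatments. That held for 1530 genes (13.0%), of which 538 were higher (4.56%) and 992 lower (8.41%). For 679 of the 11796 genes the 8 J50 pools did not overlap the 8 J35 pools at all. A lack of overlap is thus not particular to the genes named below, and being shared already requires it within each treatment. After quantile normalization of the arrays the shared split was 737 higher and 654 lower, so which direction is the more frequent depends on the scaling. Most changes were small. The median change was 0.26 among shared rises and -0.24 among shared falls, and only 7 shared genes at least doubled and 6 fell to or below the matching 2-fold limit.

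**Figure D1:**
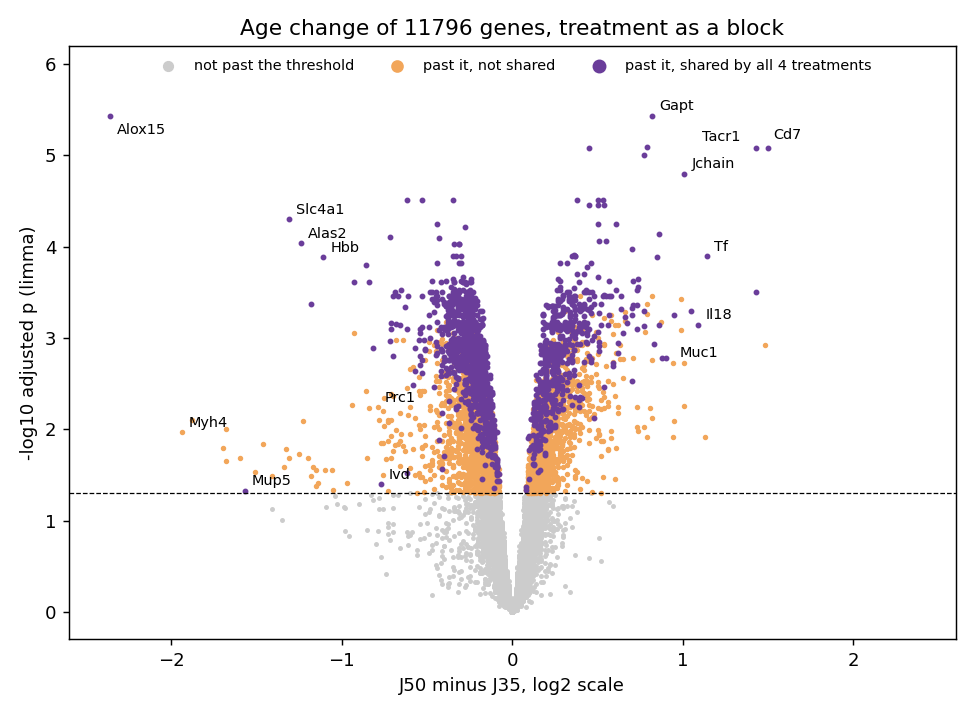
Each point is 1 of 11796 genes: the horizontal axis is the J50 minus J35 difference on the log2 scale with treatment as a block, and the vertical axis is -log10 of limma's adjusted p. Shared genes (purple) hold the smallest p-values, with Alox15 farthest left at -2.36 and Cd7 farthest right at 1.5, while the fast muscle gene Myh4 at -1.94 and the cell division gene Prc1 at -0.79 passed without being shared.

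The 4 treatments did not contribute equally. The tests within them share an estimate of the spread from all 16 arrays. Tested within each treatment, the age change passed for 102 genes in control (0.865%; 0.627% higher and 0.237% lower), 328 with vinclozolin (2.78%; 1.14% higher and 1.64% lower) and 327 with genistein (2.77%; 0.814% higher and 1.96% lower). With the mixture 3852 passed (32.7%; 14.4% higher and 18.3% lower). The age change itself was also larger with the mixture: its SD over genes was 0.365 on the log2 scale, against 0.212 in control, 0.277 with vinclozolin and 0.219 with genistein. Between pairs of treatments, which share no pool, the age changes correlated across genes at 0.78 for control and mixture, 0.74 for genistein and mixture and 0.61 for control and genistein. The 3 correlations with vinclozolin were lower, at 0.20 with the mixture, 0.22 with genistein and 0.27 with control. Of the 4848 genes past the threshold 4212 (86.9%) had the same sign in all 4 treatments, against 5613 (47.6%) of all genes tested. The age test favours genes whose treatments agree, so the higher share is partly built in. Among the 4848 genes 317 had the opposite sign with vinclozolin. Without the mixture pools 2133 genes passed, 876 higher and 1257 lower. The counts within a treatment moved with single pools: from 2 (without J35 control pool 2) to 177 (without J35 genistein pool 1) in control, from 67 (without J50 vinclozolin pool 2) to 407 with vinclozolin, from 0 (without J50 genistein pool 1, where 1546 had an unadjusted p under 0.05 by limma) to 432 with genistein, and from 1596 (without J50 mixture pool 2) to 4174 with the mixture. The last 3 upper values were those without J35 vinclozolin pool 1.

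A test of whether the age change differed between treatments passed for 71 genes (0.602%), between 30 (without J50 vinclozolin pool 1) and 242 (without J35 vinclozolin pool 1) when 1 pool was left out. In 50 of the 71 the vinclozolin change lay farthest from the others, and 25 belonged to the hair and epidermal lists, which held 43 tested genes. Tested genes of these lists include some, such as Krt25, that reached the floor only through the J35 vinclozolin pools, where they were high. The share of these lists among the 71 therefore depends on the filter. Without both J35 vinclozolin pools none passed limma's test, with 1670 at an unadjusted p under 0.05. Only 3 shared genes (Lmnb1, Mansc1 and Nudcd2) passed this test, so for the others a treatment difference in the size of the change was not detected, which does not show that the sizes were equal.

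Only 17 genes passed within every treatment. These tests are not separate, because they share an estimate of the spread from all 16 arrays. From their own 4 pools alone vinclozolin gave 25 genes and genistein 1. The 17 genes were Alox15, Cd3e, Cd7, Cd74, Cpne8, Fcrla, Gapt, Ikzf1, Jchain, Meg3, Nkg7, Prdx5, RT1-Ba, RT1-Db1, Retnlg, Tacr1 and Tf. Lymphocyte and antigen presentation genes are among them, as are the transferrin gene Tf and the lipoxygenase gene Alox15.

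**Figure D2:**
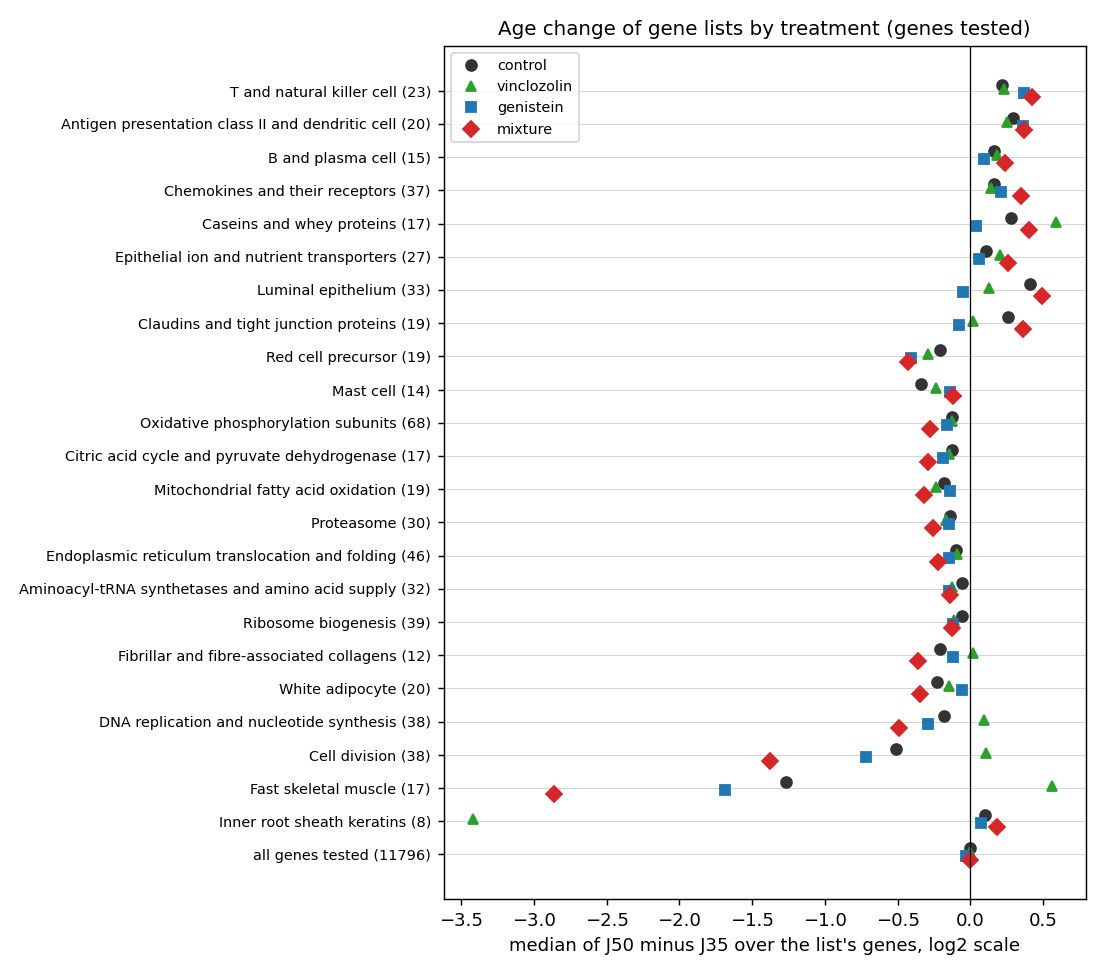
Each symbol is the median J50 minus J35 difference, on the log2 scale, over the tested genes of a list within 1 treatment; the number of genes stands in brackets. The T and natural killer cell median lies above 0 in every treatment (0.22 to 0.42) and the red cell precursor median below 0 (-0.43 to -0.21), while cell division and fast muscle lie far below 0 in control, genistein and mixture and above 0 with vinclozolin.

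Lymphocyte genes were higher at J50 in all 4 treatments. Of 23 T and natural killer cell genes tested 18 rose and none fell, 11 of them shared, with a median of 0.31 (all genes tested: -0.01). Another 9 named on the array lay under the floor. Cd7, a surface glycoprotein of these lymphocytes, lay between 7.89 and 8.89 (median 8.17) in the J35 pools and between 9.43 and 9.93 (median 9.71) in the J50 pools. It rose 2.83-fold (log2 change 1.5, SE 0.12, n = 8 pools per age, adjusted p = 8.21e-06), and the highest J35 value, from genistein pool 1, stayed below every J50 value. Nkg7, a granule protein of cytotoxic cells, ran from 6.56 to 7.29 (median 6.92) and then from 7.51 to 7.81 (median 7.68), a rise of 0.79 (SE 0.06, adjusted p = 8.09e-06). Cd3e, a chain of the T cell receptor complex, ran from 5.94 to 6.25 (median 6.17) and from 6.73 to 7.25 (median 6.89). It rose by 0.77 (SE 0.06), again with no overlap. Gzma, a killer cell protease, rose by 0.60 (SE 0.10) without being shared, and its age change differed between treatments (adjusted p = 0.0403): 0.92 in control and 0.95 with the mixture, but 0.36 with vinclozolin and 0.18 with genistein. Cd4 (0.21, adjusted p = 0.0285) lost its call when any of 8 pools was left out (adjusted p up to 0.063), and Cd8a rose by 0.19. In such bulk pools more cells of a type and more RNA per cell cannot be told apart.

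Genes of B and plasma cells moved the same way. Of 15 tested 9 rose and none fell, 3 of them shared, with a median of 0.14. Jchain, which joins the units of secreted IgA and IgM, ran from 5.25 to 5.85 (median 5.69) at J35 and from 6.36 to 7.04 (median 6.71) at J50. That is a 2.02-fold rise (log2 change 1.01, SE 0.09, adjusted p = 1.58e-05) with no overlap, largest with the mixture (1.22) and smallest with vinclozolin (0.72). Fcrla, an Fc receptor-like protein of B cells, rose by 0.54 (SE 0.05). Pigr, the epithelial receptor that carries IgA into secretions, rose by 0.45 (SE 0.06), running from 5.90 to 6.32 at J35 and from 6.24 to 6.78 at J50. Its overall ranges overlapped although the pools did not within any treatment.

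Class II antigen presentation genes rose in all treatments. Of 20 genes of this list, which also holds dendritic cell markers, 15 rose and none fell, 12 shared, with a median of 0.34 and treatment medians from 0.25 to 0.37. RT1-Ba, a class II chain, ran from 8.73 to 9.19 (median 8.96) at J35 and from 9.38 to 9.74 (median 9.54) at J50, a rise of 0.61 (SE 0.06, adjusted p = 5.6e-05). RT1-Bb rose by 0.70 (SE 0.11), RT1-Db1 by 0.50 (SE 0.05) and Cd74, the invariant chain that escorts class II molecules, by 0.45 (SE 0.04). The RT1 genes are close relatives whose probes may cross-hybridise, so how the rise divides among them is uncertain. Xcr1, the chemokine receptor of a dendritic cell class, rose by 0.48 (SE 0.07). Macrophage genes moved less: 11 of 28 rose and none fell, 2 shared, with a median of 0.11 and -0.01 in control. Mpeg1, a pore-forming protein of macrophages, was shared (0.28, SE 0.04), whereas Cd68 (0.16, adjusted p = 0.197) and Cd163 (-0.17, adjusted p = 0.165) did not pass.

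Ligands and receptors that guide leukocytes rose as well, 18 of 37 chemokine and receptor genes against 3 that fell, with 11 shared rises and a median of 0.17. A matched pair was among them: Cx3cl1, a membrane-bound chemokine, ran from 8.43 to 9.46 (median 8.73) and from 9.38 to 9.82 (median 9.62), and its receptor Cx3cr1 from 6.78 to 7.69 (median 7.29) and from 7.71 to 8.57 (median 8.08). The receptor's ranges did not overlap (0.86, SE 0.14), and those of the ligand did so only through genistein J35 pool 1 (0.85, SE 0.10). Ccr2, a monocyte receptor, rose by 0.73 (SE 0.11) and Ccl11, an attractant of eosinophils, by 0.73 (SE 0.10). Ccl21, the lymphatic chemokine that draws T and dendritic cells, rose by 0.51 (SE 0.10). The falls were Cxcl3 (-0.51), Ccr1 (-0.28) and Ccl7 (-0.15), none of them shared. The call for Ccr1 was lost without J35 mixture pool 2 or J50 mixture pool 2 (adjusted p up to 0.052), and that for Ccl7 without any of 10 pools (up to 0.075).

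Further immune genes stood among the largest shared rises. Il18, a cytokine of epithelium and macrophages, ran from 7.59 to 9.09 (median 7.92) at J35 and from 8.5 to 9.62 (median 9.13) at J50, a 2.13-fold rise (log2 change 1.09, SE 0.18, adjusted p = 0.000711) whose overlap came from genistein J35 pool 1. Gapt, an adaptor of B and myeloid cells, rose by 0.82 (SE 0.05), with the smallest adjusted p of the comparison together with Alox15 (3.66e-06). Retnlg, a secreted resistin-like protein of granulocytes, rose by 0.86 (SE 0.09). Mmp12, the elastase of macrophages, ran from 6.39 to 7.70 and from 7.77 to 8.43 without overlap, a rise of 0.88 (SE 0.17), with 0.34 for vinclozolin and 1.72 for the mixture. Tacr1, the receptor of the neuropeptide substance P, ran from 7.42 to 8.41 (median 7.91) and from 8.87 to 9.70 (median 9.32), a 2.70-fold rise (log2 change 1.43, SE 0.11, adjusted p = 8.35e-06).

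Of 29 interferon response genes 11 rose and 1 fell, with a median of 0.20. Oas2, an RNA sensor of the response, rose by 0.59 (SE 0.12, shared), and Usp18, its feedback inhibitor, by 0.77 (SE 0.20), not shared. The fall was Rsad2, an antiviral enzyme of the same response, which ran from 7.15 to 8.0 (median 7.73) at J35 and from 6.49 to 7.34 (median 6.81) at J50 (-0.84, SE 0.11, adjusted p = 0.000241). The change of Rsad2 lay between -0.91 and -0.79 in the 4 treatments.

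**Figure D3:**
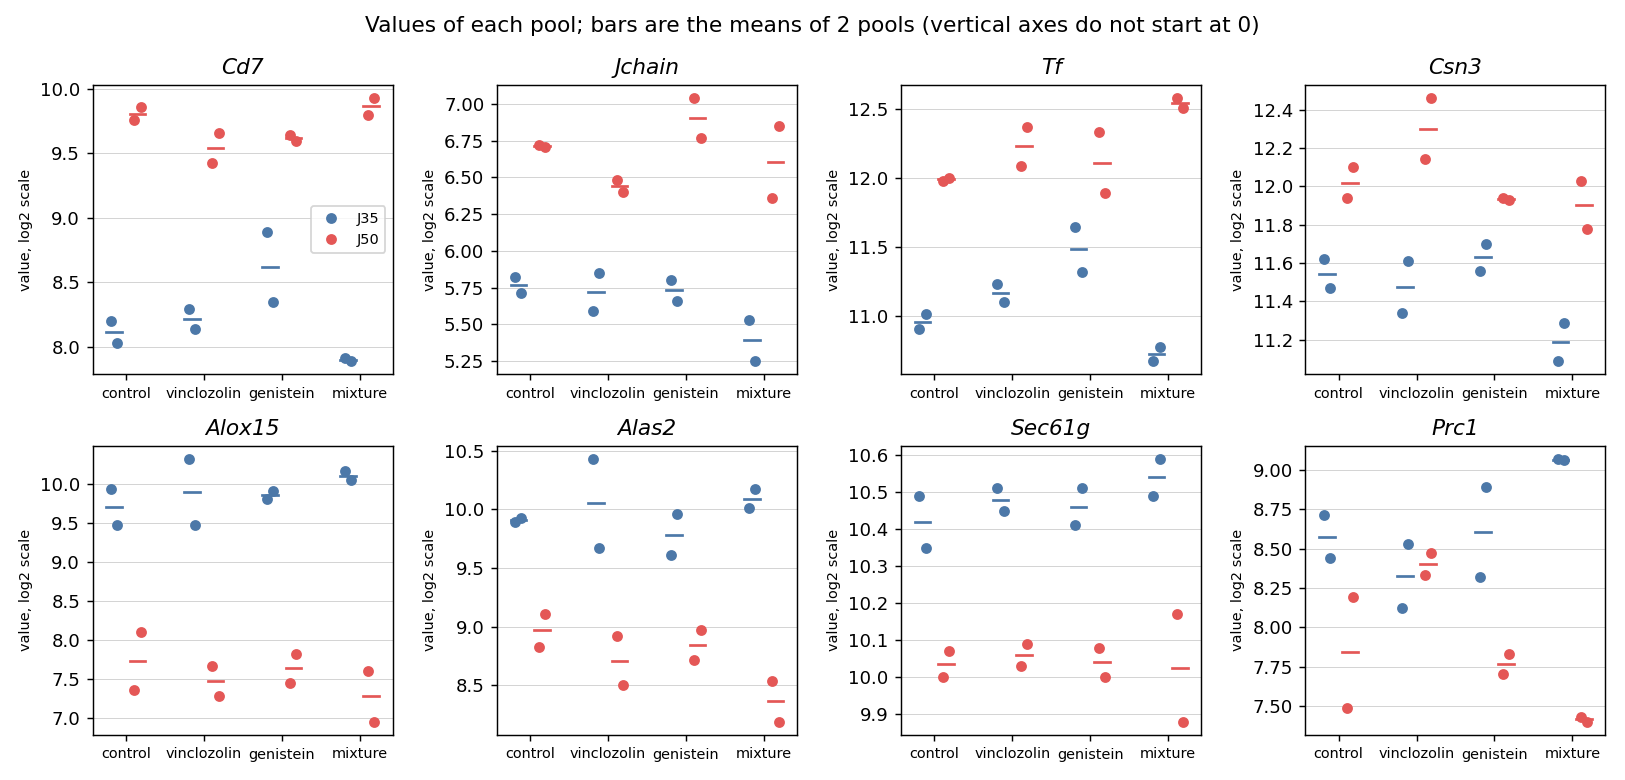
Each dot is a pool's value on the log2 scale, blue for J35 and red for J50, by treatment; bars are means of 2 pools, and the vertical axes do not start at 0. For Cd7, Jchain, Tf, Csn3, Alox15, Alas2 and Sec61g the colours separate in every treatment, while for Prc1 the vinclozolin J50 pools (8.33 and 8.47) lie among the vinclozolin J35 pools (8.12 and 8.53).

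Milk and secretion genes were partly higher. Of 17 caseins, whey proteins and relatives 10 rose and 1, the iron-binding protein Ltf, fell (-0.24). In this list 6 rises were shared and the median was 0.34. Within treatments the median was 0.28 in control, 0.59 with vinclozolin, 0.04 with genistein and 0.40 with the mixture. Pool scores of the list overlapped, from -0.48 to 0.42 at J35 and from -0.37 to 0.77 at J50. Tf, the iron carrier transferrin, ran from 10.67 to 11.64 (median 11.05) at J35 and from 11.89 to 12.58 (median 12.21) at J50, a 2.20-fold rise (log2 change 1.14, SE 0.13, adjusted p = 0.000127) with no overlap. Csn3, the casein that stabilises micelles, ran from 11.09 to 11.70 (median 11.52) and from 11.78 to 12.46 (median 11.99), a rise of 0.58 (SE 0.08). Lalba, the whey protein needed for lactose synthesis, rose by 0.59 (SE 0.12) and Csn1s2b, another casein, by 0.71 (SE 0.11). The major milk proteins did not move as a set. Csn2 (beta-casein) changed by 0.34 (SE 0.52, adjusted p = 0.612), with 2.10 for vinclozolin and -0.45 in control, and turned to -0.25 without the vinclozolin pools. Wap, the whey acidic protein, changed by 0.51 (SE 0.28, adjusted p = 0.157), and Csn1s1 rose by only 0.20 (adjusted p = 0.0269), a call lost without any of 7 pools (adjusted p up to 0.06).

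Secreted defence and transport genes gave several of the largest shared rises. Scgb2a1, a secretoglobin, ran from 6.63 to 7.92 (median 7.44) and from 8.0 to 9.42 (median 8.82), a 2.70-fold rise (log2 change 1.43, SE 0.19, adjusted p = 0.000313) with no overlap. Lbp, which binds bacterial lipopolysaccharide, ran from 11.18 to 12.41 and from 12.56 to 12.97, a rise of 0.95 (SE 0.15), and Cp, the copper protein ceruloplasmin, rose by 0.51 (SE 0.08). Of 21 defence genes 11 rose and 3 fell, with 3 and 1 shared and a median of 0.15. The falls were Serpina1 (-0.53, shared), Ltf and Serpina3n (-0.22, lost without any of 9 pools, adjusted p up to 0.081). Of 27 epithelial transporters 13 rose and Atp1b1, a sodium pump subunit, fell (-0.37). The beta and gamma subunits of the epithelial sodium channel moved together: Scnn1b rose by 0.90 (SE 0.17) and Scnn1g by 0.83 (SE 0.15), both shared, each with its largest change in the mixture (1.77 and 1.57). Slc34a2, a phosphate carrier, rose 1.99-fold (SE 0.14 on the log2 scale) without being shared. Plekhs1, which encodes a pleckstrin homology protein, rose 2.08-fold (log2 change 1.05, SE 0.16).

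Luminal genes passed often, but none was shared. Of 33 tested 18 rose and 1, Aldh1a3, fell (-0.20), with a median of 0.24. The medians were 0.41 in control, 0.13 with vinclozolin, -0.05 with genistein and 0.49 with the mixture. Muc1, an apical mucin, ran from 7.40 to 8.81 (median 7.86) and from 8.5 to 9.59 (median 8.79), a rise of 0.94 (SE 0.19), with 0.16 for genistein. Elf5, a transcription factor of luminal progenitors and alveolar cells, rose by 0.61 (SE 0.11), with -0.02 for genistein, where the 2 J35 pools at 10.44 and 10.28 already lay among the J50 values. Prom1 rose by 0.81 (SE 0.20; 0.13 with genistein) and Btn1a1, a protein of the milk fat globule membrane, by 0.79 (SE 0.12; 0.20 with genistein). The simple epithelium keratins Krt8 and Krt18 did not follow, nor did Epcam. Krt8 changed by 0.01 (adjusted p = 0.924), Krt18 by 0.10 (adjusted p = 0.294) and Epcam by 0.06 (adjusted p = 0.607), and without the mixture pools Krt8 was at -0.01 and Epcam at -0.04. Anxa8 (0.82) and Met, the receptor of hepatocyte growth factor (0.26), rose, and their age changes differed between treatments (adjusted p = 0.0327 and 0.0177). For Anxa8 the change was 1.28 in control and 1.42 with the mixture, against 0.10 with vinclozolin and 0.48 with genistein.

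The largest fall of all was that of Alox15, a lipoxygenase of eosinophils and some macrophages that oxidises polyunsaturated fatty acids. It lay between 9.47 and 10.32 (median 9.92) at J35 and between 6.95 and 8.10 (median 7.52) at J50, a 5.13-fold fall (log2 change -2.36, SE 0.16, adjusted p = 3.66e-06). The lowest J35 pool stood far above the highest J50 pool, and the change was -1.97 in control, -2.42 with vinclozolin, -2.22 with genistein and -2.83 with the mixture. The lists that hold Alox15 did not move with it as sets, and the falls given here include it. Of 25 lipoxygenase and prostanoid genes 6 rose and 4 fell (8 without J35 vinclozolin pool 2) with a median of 0.04. Of 12 eosinophil and neutrophil genes 3 rose and 3 fell with a median of 0.12, and another 8 named on the array lay under the floor.

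Red cell genes fell in every treatment. Of 19 red cell precursor genes tested 12 fell, 9 of them shared, with a median of -0.32. The exception was Epor, the erythropoietin receptor (0.12, adjusted p = 0.0319, lost without any of 8 pools, adjusted p up to 0.07). Slc4a1, the anion exchanger of the red cell membrane, ran from 7.80 to 8.95 (median 8.31) and from 6.77 to 7.31 (median 7.09), a 2.47-fold fall (log2 change -1.31, SE 0.13, adjusted p = 4.97e-05). Alas2, the erythroid enzyme of haem synthesis, ran from 9.61 to 10.43 (median 9.95) and from 8.19 to 9.11 (median 8.78), a 2.36-fold fall. Neither gene overlapped between the ages. Ahsp, the chaperone of free alpha-globin, fell by 1.18 (SE 0.17) on the log2 scale, Hbb by 1.11 (SE 0.13) and Hbb-b1 by 0.93 (SE 0.12). The beta-globin genes are near-identical, so their probe sets may read each other's RNA. Residual blood carries these RNAs, and its part in the falls was not tested.

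Mast cell genes were mostly lower, 8 of 14 against 3 that rose, with a median of -0.22. The tryptases Tpsab1 (-0.71, SE 0.12; 8.23 to 9.11 at J35 and 7.55 to 8.65 at J50) and Tpsb2 (-0.44, SE 0.07) fell in all treatments. Hdc, which makes histamine, fell by 0.39 and Cma1, a chymase, by 0.34, neither shared. The rises were Kit (0.59), a growth factor receptor of mast cells that luminal progenitors also carry, Gata2 (0.10, shared) and Ltc4s (0.22, lost without any of 10 pools, adjusted p up to 0.064).

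Many genes of energy metabolism were lower in small steps, and the list medians were lowest with the mixture. Of 68 subunits of the respiratory chain and ATP synthase 47 fell and 2 rose, with 27 shared falls and a median of -0.17, and the pools' list scores (median 0.09 at J35 and -0.09 at J50) did not overlap between ages. Sdha, of complex II, ran from 9.71 to 10.11 (median 9.94) and from 9.37 to 9.71 (median 9.55), a fall of 0.37 (SE 0.06). Ndufa1, of complex I, fell by 0.42 (SE 0.09) and Atp5mc1, of the ATP synthase ring, by 0.38 (SE 0.07). The rises were Ndufs7 (0.16) and Ndufs4 (0.12, lost without any of 8 pools, adjusted p up to 0.08). Of 17 citric acid cycle and pyruvate dehydrogenase genes 11 fell and none rose, 7 shared, among them Dld (-0.37, SE 0.06), a subunit of pyruvate dehydrogenase, and Cs (-0.35, SE 0.06), citrate synthase. Of 19 genes of mitochondrial fatty acid oxidation 12 fell and none rose, with a median of -0.24. Acadm, the medium-chain dehydrogenase, is among its 5 shared falls, but lost its call without J35 mixture pool 2 or J50 vinclozolin pool 2 (adjusted p up to 0.057). In glycolysis 5 of 15 fell (11 without J35 vinclozolin pool 2) and only Ldha, lactate dehydrogenase A, was shared (-0.37, SE 0.06), while Aldoc rose by 0.54 (SE 0.10).

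Muscle genes moved with this in 3 treatments: the fast muscle median was -1.27 in control, -1.69 with genistein and -2.86 with the mixture, but 0.56 with vinclozolin, where the oxidative phosphorylation median was -0.13. With each pool's fast muscle score as a covariate 22 of the 68 subunits fell, 19 of them shared, with a median of -0.15, and without the mixture pools 30 fell, 24 of them shared. Of the fatty acid oxidation genes 4 fell with the covariate, 3 of them shared, and of the citric acid cycle genes 7 fell, 6 of them shared. After quantile normalization 9 fatty acid oxidation genes fell, with 1 shared in place of 5.

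Genes of protein export and turnover fell together. Of 46 genes of endoplasmic reticulum translocation and folding 28 fell and 1 rose, with 17 shared falls and a median of -0.14. Sec61g, a subunit of the translocation channel, ran from 10.35 to 10.59 (median 10.49) and from 9.88 to 10.17 (median 10.05), a fall of 0.44 (SE 0.04, adjusted p = 5.6e-05) with changes between -0.51 and -0.39 in the 4 treatments. Ostc, of the oligosaccharyltransferase, fell by 0.43 (SE 0.05) and Sec61b by 0.46 (SE 0.07), while Xbp1, a transcription factor of the secretory pathway, rose by 0.13 (SE 0.04). Of 30 proteasome genes 21 fell and none rose, 14 shared, with a median of -0.16. Psma4, a core subunit, fell by 0.38 (SE 0.06) and Psmc6, an ATPase of the cap, by 0.34 (SE 0.05). Of 39 ribosome biogenesis genes 15 fell and none rose, 6 shared, with a median of -0.09, Nop58 (-0.31, SE 0.05) and Tsr1 (-0.28, SE 0.04) among them. Of 32 genes of tRNA charging and amino acid supply 16 fell and none rose, 7 shared, with a median of -0.12. Psat1, of serine synthesis, fell by 0.36 (SE 0.05) and Hars1, which charges histidine tRNA, by 0.27 (SE 0.05). The medians of these lists kept their sign after quantile normalization (-0.12, -0.10, -0.05 and -0.07), where 25, 16, 10 and 11 genes fell.

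The remaining large shared falls came from several families. Emb, a partner of lactate transporters, ran from 6.98 to 7.69 and from 6.03 to 6.81 without overlap (-0.86, SE 0.10). Cdc25b, a phosphatase that activates cyclin-dependent kinases, ran from 9.86 to 10.32 and from 9.04 to 9.61, a fall of 0.72 (SE 0.08, adjusted p = 7.86e-05) with changes between -0.97 and -0.63. Trim59, a ubiquitin ligase, fell by 0.82 (SE 0.15), Agt, the angiotensin precursor, by 0.72 (SE 0.13), and Lgals7, a galectin of stratified epithelium, by 0.71 (SE 0.12). A pair of further genes stood far above the rest in J35 vinclozolin pool 2. In that pool Mup5, a major urinary protein whose family members are near-identical, stood at 12.86 and Ivd, an enzyme of leucine breakdown, at 12.05, against 7.22 to 8.39 and 9.34 to 9.89 in the other J35 pools. Their changes of -1.57 (SE 0.59, adjusted p = 0.0469) and -0.77 (SE 0.28, adjusted p = 0.0399) lost the call when any of 11 and of 10 other pools was left out, respectively (adjusted p up to 0.088 and 0.082). Without J35 vinclozolin pool 2 itself they were smaller and still passed, at -0.91 and -0.46 (adjusted p = 0.001 for each).

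Matrix genes were lower in part. Of 48 genes of collagen and elastin assembly 18 fell and 6 rose, with 4 and 2 shared and a median of -0.11. Over all genes 23.1% fell and 18.0% rose, with 8.41% and 4.56% shared, so the shared counts of this list are near those of any genes. Its median was -0.16 in control, 0.01 with vinclozolin, -0.01 with genistein and -0.22 with the mixture. Pcolce, which enhances procollagen cleavage, ran from 9.64 to 10.23 and from 9.40 to 9.78 (-0.41, SE 0.06), Cthrc1, a secreted protein of collagen-making cells, fell by 0.39 (SE 0.06), and Plod2, a collagen lysyl hydroxylase, by 0.57 (SE 0.12). Fibrillar collagens fell in 7 of 12, none shared: Col3a1 fell by 0.27 (SE 0.06), and Col1a1 was at -0.12 (adjusted p = 0.0674). Col4a1, of the basement membrane, fell by 0.55 (SE 0.10, shared). Among proteases and inhibitors Timp2 rose by 0.25 (SE 0.04) and Serpine2 fell by 0.37 (SE 0.05), both shared, and Prelp, a proteoglycan that anchors basement membranes, rose by 0.27 (SE 0.05).

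Of 19 hormone receptors tested 3 rose and 4 fell, none shared, with a median of 0.01, where 18.0% of all genes rose and 23.1% fell. Without the mixture pools none rose and 1 fell. Esr1, the estrogen receptor, ran from 10.10 to 10.69 (median 10.25) and from 10.26 to 10.70 (median 10.46), a difference of 0.17 (adjusted p = 0.0958), Pgr, the progesterone receptor, was at 0.23 (adjusted p = 0.215) and Ghr, the growth hormone receptor, at -0.01 (adjusted p = 0.898; 0.01 after quantile normalization and without the mixture pools). Prlr, the prolactin receptor, rose by 0.23 (adjusted p = 0.0226), a call lost without J35 genistein pool 2 or J35 mixture pool 2 (adjusted p up to 0.051). Esr2 and Tnfsf11 lay under the floor. Of 24 hormone targets and mediators 8 rose and 4 fell, with a median of 0.04, and 2 rose and 2 fell without the mixture pools. Fkbp5, a chaperone induced by progesterone, androgens and glucocorticoids, ran from 8.23 to 9.34 (median 9.01) and from 7.33 to 8.35 (median 8.11), a 1.91-fold fall (log2 change -0.93, SE 0.16, adjusted p = 0.000883) that was smallest with genistein (-0.27). Stc2, a secreted glycoprotein, rose by 0.61 (SE 0.18). Wnt4, a signal downstream of progesterone, fell by 0.28 (SE 0.06, shared) and Wnt5b rose by 0.38 (SE 0.06, not shared).

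Growth factor axes gave scattered changes. Tgfb3, a ligand that is known to act in involution, had a median of 10.15 at J35 and 11.06 at J50 with the highest J35 pool (10.81) just above the lowest J50 pool (10.79), a rise of 0.82 (SE 0.11), while Smad6, an inhibitor of the pathway, fell by 0.49 (SE 0.08, shared). Igfbp5, a binding protein of insulin-like growth factors, rose by 0.39 (SE 0.06, shared) and Igfbp3 fell by 0.38 (SE 0.09). Adam17, which sheds EGF family ligands, fell by 0.25 (SE 0.05, shared). Of 14 clock genes Npas2, a transcription factor of the clock, was the shared one (0.48, SE 0.12).

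Fat cell genes were somewhat lower. Of 20 white adipocyte genes 8 fell and none rose, with a median of -0.21, and 1 was shared: Cebpa, an adipocyte transcription factor (-0.46, SE 0.10). Cd36, a fatty acid carrier, fell by 0.41 (SE 0.08), whereas Adipoq, the adipocyte hormone adiponectin, was at -0.08 (adjusted p = 0.220). Dgat1, of triglyceride synthesis, fell in all treatments (-0.42, SE 0.05) and Acacb, a carboxylase of fatty acid metabolism, rose by 0.54 (SE 0.13).

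**Figure D4:**
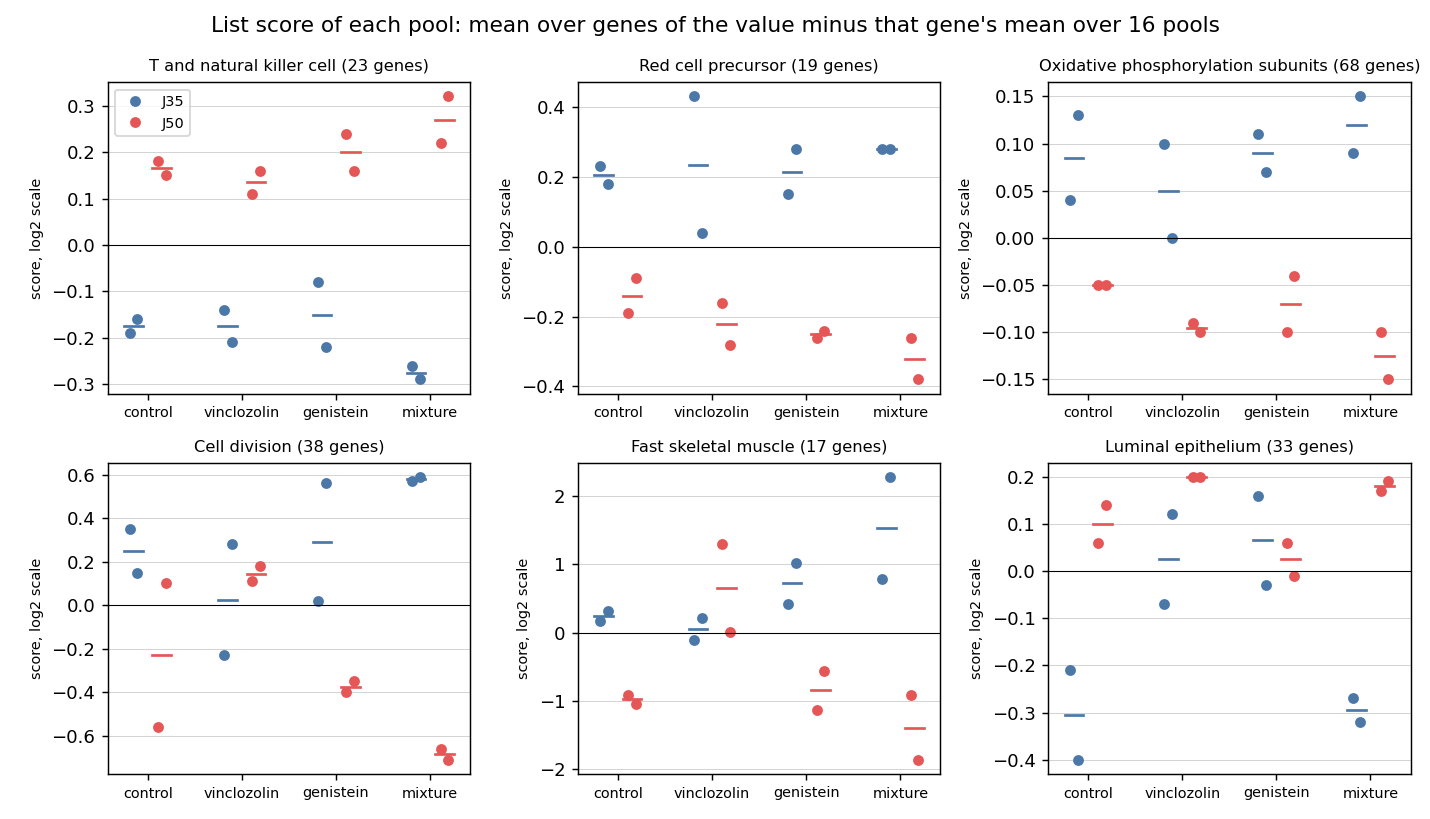
Each dot is a pool's list score, the mean over genes of the log2 value minus that gene's mean over 16 pools, blue for J35 and red for J50, with bars at the mean of 2 pools. The T and natural killer cell, red cell precursor and oxidative phosphorylation scores separate the ages with no overlap, whereas cell division and fast muscle scores of the vinclozolin J50 pools (0.11 and 0.18; 1.30 and 0.01) lie among J35 values.

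Cell division genes passed the overall test widely and yet were not shared. Of 38 tested 33 fell and none rose, with a median of -0.59, and none was shared. The medians were -0.51 in control, -0.72 with genistein and -1.38 with the mixture, against 0.11 with vinclozolin. Without both J35 vinclozolin pools 36 fell and 23 were shared by the other 3 treatments. Pool scores ran from -0.23 to 0.59 (median 0.31) at J35 and from -0.71 to 0.18 (median -0.37) at J50. The mixture pools were the highest at J35 (0.57 and 0.59) and the lowest at J50 (-0.66 and -0.71), and without them 2 of the 38 fell (median -0.36). No gene of this list passed the test of a difference between treatments, so a vinclozolin difference was not shown for any of them. Ndc80, of the kinetochore, ran from 6.89 to 7.99 (median 7.46) and from 6.01 to 7.20 (median 6.46), a fall of 0.84 (SE 0.20, adjusted p = 0.00585), with -1.79 for the mixture and -0.01 for vinclozolin. Prc1, which bundles the spindle midzone, fell by 0.79 (SE 0.19), Ccnb1, the mitotic cyclin, by 0.78 (SE 0.20), Top2a, a topoisomerase of dividing cells, by 0.70 (SE 0.21) and Cdk1, the kinase of mitotic entry, by 0.63 (SE 0.19). The checkpoint genes Bub1b (-0.71), Bub1 (-0.70) and Mad2l1 (-0.58) did the same. Of 38 replication and nucleotide synthesis genes 15 fell, 1 shared, with a median of -0.20 and 0.09 for vinclozolin. Counts for this list were 27 without J35 vinclozolin pool 1, 24 without J50 vinclozolin pool 2, 9 without J35 mixture pool 2, 32 without both J35 vinclozolin pools and 2 without the mixture pools. Rrm2, of deoxynucleotide synthesis, fell by 0.86 (SE 0.19), Tyms by 0.45 (SE 0.09) and Pcna, the replication clamp, by 0.48 (SE 0.12).

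Genes that peak in mitosis are known for the CHR element (TTTGAA) and CCAAT boxes in their promoters, and replication genes for E2F sites. RefSeq promoters of the assembly GRCr8, from 250 bases before to 50 bases after the start, were searched on both strands for TTTGAA and CCAAT and for the E2F forms TTTCCCGC and TTTGGCGC. No motif contains another. Of 38 cell division genes 32 had a promoter in the table: 23 (71.9%) held TTTGAA and 22 (68.8%) CCAAT, against 12.2% and 37.6% of the 10231 tested genes with a promoter (18.3% and 37.5% of all 33469 promoters), and none held either E2F form. Of 38 replication genes 37 had a promoter: 3 (8.11%) held TTTGAA, 22 (59.5%) CCAAT, 5 (13.5%) TTTCCCGC and 6 (16.2%) TTTGGCGC, the last 2 against 1.82% and 0.841% of the tested genes (0.974% and 0.493% of all promoters). A match describes letters in this window and no binding. Promoters of 3 of the genes above are shown as examples with TTTGAA and CCAAT, with TTTGAA alone and with neither, as 150 bases ending 10 bases past the start and with matches in capitals. The TTTGAA of Prc1 begins 18 bases before the start and that of Bub1b 4 bases before it. Prc1 has another CCAAT upstream of the bases shown.
Prc1, chr1:143659341-143659490, plus strand: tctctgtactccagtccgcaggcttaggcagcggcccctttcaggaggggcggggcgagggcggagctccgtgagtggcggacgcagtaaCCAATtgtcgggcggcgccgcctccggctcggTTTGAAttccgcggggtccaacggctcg
Bub1b, chr3:126016927-126017076, plus strand: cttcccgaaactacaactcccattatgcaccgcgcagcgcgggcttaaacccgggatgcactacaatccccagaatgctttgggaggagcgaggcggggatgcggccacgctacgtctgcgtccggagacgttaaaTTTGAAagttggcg
Bub1, chr3:135504912-135505061, minus strand: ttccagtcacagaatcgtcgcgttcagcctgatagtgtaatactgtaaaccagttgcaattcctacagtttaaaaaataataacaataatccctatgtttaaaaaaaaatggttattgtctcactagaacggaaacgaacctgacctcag

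Skeletal muscle genes gave the largest falls that were not shared. Of 17 fast muscle genes 13 fell and none rose, with a median of -1.25. Pool scores ran from -0.11 to 2.28 (median 0.37) at J35 and from -1.86 to 1.30 (median -0.91) at J50. The highest J35 pool was mixture pool 2 and the highest J50 pool vinclozolin pool 1. Myh4, a fast myosin heavy chain, ran from 8.25 to 11.36 (median 8.95) and from 5.63 to 9.84 (median 7.19), a fall of 1.94 (SE 0.53, adjusted p = 0.0107). Pvalb, a calcium-binding protein of fast fibres, fell by 1.88 (SE 0.48), and its age change differed between treatments (adjusted p = 0.0409), with -4.13 for the mixture and 0.50 for vinclozolin. Without J35 genistein pool 2, J50 genistein pool 1 or J50 mixture pool 2 the count of falls was 7, and without J50 mixture pool 1 it was 8. Without the mixture pools limma called none of the 17 (5 lower at an unadjusted p under 0.05), with a median of -0.73, and without both J35 vinclozolin pools all 17 fell and were shared by the other 3 treatments. Mybpc1, of slow muscle, was at -1.14 (adjusted p = 0.0384), a call lost without any of 12 pools (adjusted p up to 0.085). With the fast muscle score as a covariate 1378 of 11796 genes passed the age comparison, 533 higher and 845 lower, 922 of them shared. At that share a short list would hold few calls, so a count of 0 or a few in it is not particular to the list. Under it limma called none of 38 cell division genes (median -0.21, 3 lower at an unadjusted p under 0.05) and none of 38 replication genes (median -0.07, 2 lower). It also called none of 20 white adipocyte genes (5 lower at an unadjusted p under 0.05), 12 fibrillar collagens (2 lower) and 19 hormone receptors (1 higher and 2 lower). Rises numbered 3 for luminal genes, 1 for interferon, 2 for macrophage, 3 for B and plasma cell, 11 for chemokine, 2 for defence and 4 for transporter genes. In collagen assembly 4 fell and 2 rose, of the hormone targets 2 rose and 1 fell, and in glycolysis 1 fell. Under the covariate 13 T and natural killer cell genes and 12 class II genes still rose and 9 red cell precursor genes fell. Falls numbered 14 for the endoplasmic reticulum list, 11 for the proteasome and 8 for tRNA charging. Since that score differs between the ages, the covariate also takes up part of the age difference.

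Hair follicle genes showed the opposite pattern, with a change in vinclozolin alone. Krt25, an inner root sheath keratin, stood at 10.48 and 10.59 in the J35 vinclozolin pools and between 4.86 and 5.36 in the other 14 pools. Its age change was -5.45 with vinclozolin and between -0.07 and 0.13 in the other treatments, and it differed between treatments (adjusted p = 2.22e-08). Krt27 (-4.10 with vinclozolin, adjusted p = 5.13e-08) and Krt73 (-4.29, adjusted p = 1.26e-06) did the same, as did the epidermal gene Sbsn (-1.43, adjusted p = 1.47e-05). Over all treatments none of these 4 passed the age comparison. Outside the J35 vinclozolin pools Krt25 lay under the floor of 5.661, so it was tested only through the pools where it was high. A filter at the 50th percentile left 1 of the 8 inner root sheath genes. The adjusted p-values of such genes therefore add no support beyond the values themselves. The J35 vinclozolin pools entered every list count above. Without both of them T and natural killer cell genes rose in 19 of 23 and red cell precursor genes fell in 11 of 19, with 12 and 9 shared by the other 3 treatments, and falls in glycolysis numbered 10 of 15.

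The mixture pools weighed on the age calls over all genes. Without them rises dropped from 2120 to 876 and falls from 2728 to 1257. Counts of these lists dropped as well, and whether any list lost more than its share was not tested. Without the mixture pools 15 T and natural killer cell genes and 13 class II genes rose, and 9 red cell precursor genes fell. Luminal rises dropped to 5, B and plasma cell rises to 4, macrophage rises to 6 and defence rises to 7. Falls numbered 7 for the citric acid cycle, 9 for collagen assembly, 2 for fibrillar collagens, 2 for white adipocyte genes and 1 for glycolysis. That fit drops 4 pools, and the medians kept their direction in each of these lists (0.28, 0.30, -0.28, 0.15, 0.14, 0.10, 0.14, -0.12, -0.05, -0.12, -0.14 and -0.07 in the same order).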

How the data were processed

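The 16 arrays held 27342 probe sets. The log2 values were used as deposited by the authors; their scale was read from the range (2.20 to 13.95), and for their background correction, normalization and summarization the labels and file headers name no method. Array medians lay between 7.050 and 7.145. Of the probe sets 15097 had 1 gene symbol, 323 had several and 11922 had none in the annotation table. Of those with 1 symbol 15067 probe sets were matched to RefSeq. The probe set with the highest mean stood for a symbol, and genes with a mean under the 25th percentile (5.661) were left out. The age difference was fitted with limma 3.58.1 in R 4.3.3 with treatment as a block, and differences within treatments and between them with group means. Its moderated test and Benjamini-Hochberg adjustment ran over all 11796 genes, and the model code was tested on simulated data. Genes were named by rule: the 15 highest and 15 lowest shared changes, per list up to 4 members in its direction and 2 in the other, up to 10 of the treatment test, 4 cell division genes for the promoters, and a fixed panel. Outside it, Cd74, Ccl7, Gata2, Serpina3n, Lmnb1, Mansc1, Nudcd2, Cpne8, Ikzf1, Meg3 and Prdx5 were chosen after their values were seen. The 54 gene lists and the genes were chosen with earlier results of these data known. The number of arrays limits the precision: the median SE of an age change was 0.0509. The labels number the pools, and deviations of same-numbered pools correlated at over 0.1 in 8 of 28 pairs of groups (r between -0.37 and 0.30), so the numbers were not taken as pairs. Alternatives covered filters, normalization, probe sets, weights and left-out pools.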

Additional observations from a re-analysis of the deposited data

Results flagged for a closer look

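Single pools stood apart from the other 7 of their age in 16 of 296 checks of named genes, where chance gives about 1 in 20. Genistein J35 pool 1 was the highest J35 pool for Cd7 (8.89, next 8.35), Xcr1 (6.81, next 6.52), Cx3cl1 (9.46, next 8.78) and Il18 (9.09, next 8.24), 4 immune genes that rose with age. Vinclozolin J35 pool 2 was the highest for Mup5 (12.86, next 8.39), Ivd (12.05, next 9.89) and Acadm (10.29, next 9.50), and the lowest for Ccr1 (6.51, next 7.0). Control J35 pool 1 was the lowest for Cd3e (5.94, next 6.15) and the highest for Ccr2 (10.19, next 9.52) and Esr1 (10.69, next 10.36). Vinclozolin J50 pool 1 was the highest for Mybpc1 (9.13, next 7.18) and the lowest for Prelp (12.23, next 12.39) and Stc2 (8.57, next 9.32). Mixture J50 pool 2 was the lowest for Hbb (10.44, next 11.06) and mixture J35 pool 2 for Npas2 (9.18, next 9.71).

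The age change differed between treatments, by limma's test of the interaction, for 8 named genes. The adjusted p was 0.04 for Gzma, 0.041 for Pvalb, 0.018 for Met and 0.033 for Anxa8. It was 2.22e-08 for Krt25, 5.13e-08 for Krt27, 1.26e-06 for Krt73 and 1.47e-05 for Sbsn, the 4 hair and epidermal genes that were high in the J35 vinclozolin pools. Krt25 reached the floor only through those pools, so its p-value is no separate support.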

How the results depend on the processing

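Of 132 named genes past the threshold, 80 kept direction and call, at the same threshold, under every alternative fit that tested them. Under every such fit but the fast muscle covariate 98 did so, and 13 lost the call without 1 pool. The adjusted p of 0.01 and the 1.5-fold limit were not part of these gene counts. A gene that a filter left out was not counted as lost there. The age count stayed within 1.5 times of 4848 except at an adjusted p of 0.01 (2590), with at least a 1.5-fold change (173), with the muscle covariate (1378) and, chosen after seeing the data, without the mixture pools (2133). Quantile normalization gave 2166 higher and 2122 lower, median centring 1870 and 3048. Shared genes numbered 2522 without both J35 vinclozolin pools and 2519 without all vinclozolin pools, where 1 treatment fewer had to be met, and 922 with the muscle covariate. Leaving out 1 pool gave 3991 to 5029 age calls and 1558 to 2055 shared ones.

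Genes whose age change differed between treatments numbered 15 with a filter at the 50th percentile, 39 without the mixture, 21 with the muscle covariate, 0 by limma without both J35 vinclozolin pools (1670 at an unadjusted p under 0.05) or without all vinclozolin pools (1598), and 30 to 242 without 1 pool. Control counts were 375 with array weights, 175 without both J35 vinclozolin pools, 19 without the mixture, 4 with the muscle covariate, 176 from its own 4 pools and 2 to 177 without 1 pool. Vinclozolin counts were 148 with weights, 150 without the mixture, 25 from its own pools and 67 to 407 without 1 pool. Genistein counts were 159 without a filter, 140 after quantile normalization, 178 after median centring, 59 with weights, 28 without the mixture, 1 with the muscle covariate, 1 from its own pools and 0 to 432 without 1 pool (1546 at an unadjusted p under 0.05 for limma's 0). Mixture counts were 0 by limma with the muscle covariate (1252 at an unadjusted p under 0.05) and 1596 to 4174 without 1 pool. The causes were not tested.

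Changes that did not pass turned sign for Csn2 (-0.25 without both J35 or all vinclozolin pools), Krt8 (-0.01 after median centring and without the mixture, -0.02 to -0.01 without 1 of 4 pools), Epcam (-0.04 without the mixture, -0.03 with the muscle covariate) and Ghr (0.01 after quantile normalization and without the mixture, between -0.05 and 0.03 when 1 pool was left out, above 0 for 3 of them). Without both J35 or all vinclozolin pools Krt25 was at 0.02, Krt73 at 0.16 and Sbsn at 0.18. Mybpc1 was at 0.13 with the muscle covariate. A filter at the 50th percentile left 8 T and natural killer cell genes, 5 of them rising.

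The replicate block, for numbers that did not pair the pools, gave 4798 age calls, 1529 shared, 77 by treatment, and 141, 297, 286 and 3841 within control, vinclozolin, genistein and mixture, and changed no named call.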
